A study of Mus musculus with 8 samples.

Results

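The Rab GTPases were read here as every probe of the BeadChip whose gene symbol is Rab followed by a number and at most a letter and a further digit, a choice made by name and not by measured values. The rule found 84 probes of 55 genes among the 25697 probes and 18138 symbols of the array. Of these, 60 probes of 43 genes were detected, meaning that 1 array or more gave them a detection p-value (the chance of such a signal from background) below 0.01. Of the 55 symbols, 52 were current RefSeq symbols and 3 were older ones: Rab1 is now Rab1a, Rab6 is now Rab6a and Rab7l1 is now Rab29.

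The cells were primary mouse aortic smooth muscle cells (mAoSMC), grown out of pieces of aorta of several mice after the outer layer had been cleaned away. They were transfected with a scrambled control RNA or with a moR-21 mimetic, each at 5 nM, in 3 samples per treatment, and total RNA was taken 48 h later. A moR (microRNA-offset RNA) is a small RNA cut from a microRNA hairpin next to the mature microRNA, and moR-21 lies beside miR-21. The comparison asked which messenger RNAs had another level in cells given the mimetic. The study's methods name wild type C57/Bl6 mice without tying them to the aortas, the age and sex of the aorta donors were not given in the sources used here, and nothing says that the 3 samples of a treatment came from separate preparations of cells, so the p-values measure the spread between these samples.

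Rab proteins are small GTPases of the Ras family that act as switches of membrane traffic. Bound to GTP and held in a membrane by a lipid tail, a Rab recruits effectors (motors, tethers and coat adaptors) that move a vesicle and dock it at its target. Exchange factors (GEFs) turn a Rab on by loading GTP, GTPase-activating proteins (GAPs) turn it off, and each compartment of the secretory and endocytic routes carries Rabs of its own. In smooth muscle this traffic carries matrix proteins, growth factor receptors and integrins to and from the cell surface.

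The stretch of the mouse Mir21a hairpin that lies immediately 5′ of miR-21 is shown with miR-21 itself because it is the source of moR-21 and shows that the RNAs differ in their seeds. Both are from RefSeq (GRCm38.p6, minus strand, chr11:86584142-86584158 and chr11:86584120-86584141) and are written 5′ to 3′. Capitals mark bases 2 to 8 of each small RNA, the seed of a microRNA. The sponge sites described in the study's methods pair with a moR-21 that begins 1 base before the RefSeq hairpin, so its bases 2 to 8 are bases 1 to 7 of the stretch. The full sequence of the transfected mimetic was not found as text in the sources used here.
Mir21a, bases before miR-21a-5p: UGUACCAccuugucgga
mmu-miR-21a-5p: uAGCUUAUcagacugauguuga
The stretch printed holds 17 bases and miR-21a-5p holds 22, and the seeds UGUACCA and AGCUUAU are different. Transcript sequences of the Rab genes were not analysed here, so no match of either seed to a Rab messenger RNA was sought.

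Signals were quantile normalized over 8 arrays, which gives every array the same distribution of values, and put on the log2 scale. A repeat array existed for control sample 1 and for moR-21 sample 3, and the arrays of each sample were averaged. All differences are moR-21 mimetic minus scrambled control on that log2 scale, from limma over 11651 detected probes, and a probe was called when its fold change was over 1.3 (0.379 on the log2 scale) with a Benjamini-Hochberg adjusted p under 0.002. A level is comparable between samples for a probe, but not between probes. The arrays were close to each other before normalization, with median intensities of 102.5 to 109.2, 10285 to 10512 detected probes and 55 to 58 detected Rab probes each. Between the repeat arrays, Rab probes differed by a median of 0.0422 in control sample 1 and 0.0668 in moR-21 sample 3, and at most by 0.449 and 0.504.

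The cell type labels were set against marker genes. Of 10 smooth muscle markers 7 were detected, among them Acta2, whereas Cnn1, Myh11 and Myocd, which mark contractile cells, were not. Of 8 endothelial markers only Vwf was detected, and Pecam1, Cdh5, Kdr, Tie1, Tek, Emcn and Esam were not, although 1 description field of the labels names the cells AoECs. Of 8 macrophage markers Lyz2 and Csf1r were detected, and Ptprc, Cd68, Adgre1, Itgam, Tyrobp and Fcer1g were not. Of 5 mesothelial markers on the array Upk3b and Krt19 were detected, and Msln, Upk1b and Krt8 were not. Several of these moved with the treatment. The summed normalized signal of the smooth muscle markers was 10636 to 11018 in control and 13437 to 14324 in moR-21 samples. Acta2 was called higher at 0.40 at its brightest probe, and its other detected probes gave 0.64, 0.73 and 0.81. Without Acta2 the other 6 detected markers summed to 1478 to 1513 and 1458 to 1537. The groups overlapped in this sum, although single markers in it moved in both directions. Desmin (Des), an intermediate filament protein of muscle, lay below control in every moR-21 sample at -0.38, just under the fold cutoff. Tagln and Mylk lay above control in every moR-21 sample, at 0.20 and 0.24, and were not called. Smtn, Tpm2 and Lmod1 had differences of -0.05 to 0.05. The sum of the endothelial markers was 117 to 120 and 118 to 127, that of the macrophage markers 274 to 279 and 333 to 343, and that of the mesothelial markers 771 to 780 and 402 to 416. Lyz2 was called higher at 0.48 and Upk3b lower at -1.24. The part of these shifts in the Rab results was not tested.

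Among the Rab GTPases 3 genes were called lower with the moR-21 mimetic and none higher. They were Rab1, which directs vesicles from the endoplasmic reticulum (ER) to the Golgi, Rab31, which works between the Golgi and endosomes, and Rab8b, which takes part in delivery from the Golgi to the cell surface. Each has a close paralogue in the same cells, Rab1b, Rab22a and Rab8a, and none of these was called. The other 40 detected genes stayed below the fold cutoff, 16 below and 24 above control in direction. In RNA from whole cultures, less RNA per cell and fewer cells of a kind cannot be told apart.

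By probe, limma called 4 of the 60 Rab probes lower (6.67%) at an adjusted p under 0.002, where 448 of all 11651 probes (3.85%) were called lower. It called 0 Rab probes higher against 363 of all probes (3.12%), while 13 Rab probes were higher and 12 lower at an unadjusted p under 0.05, which held for 22.4% and 19.8% of all probes. By gene, each read at its brightest detected probe, 3 of 43 Rab genes were called lower (6.98%) and 0 higher, beside 382 (4.38%) and 298 (3.41%) of 8727 genes. At an unadjusted p under 0.05, 8 Rab genes were lower and 9 higher of 43, beside 21.1% and 23.4% of all genes. In both directions together the Rab genes were called about as often as other genes, 6.98% against 7.79%. The median log2 difference of the 60 Rab probes was 0.012, and over all detected probes it was 0.005.

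With a looser rule, an adjusted p under 0.05 with no fold cutoff, 8 Rab genes were lower (18.6%, against 17.3% of all genes) and 8 higher (18.6%, against 18.8%). By probe this rule held for 21 of 60 (35.0%), against 33.8% of all probes. In 12 of the 60 Rab probes every moR-21 sample lay below every control sample, which held for 21.2% of all probes, and in 11 every moR-21 sample lay above, which held for 23.7%. As a family the Rab GTPases were therefore called at shares near the background, and the results are those of single members.

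**Figure D1:**
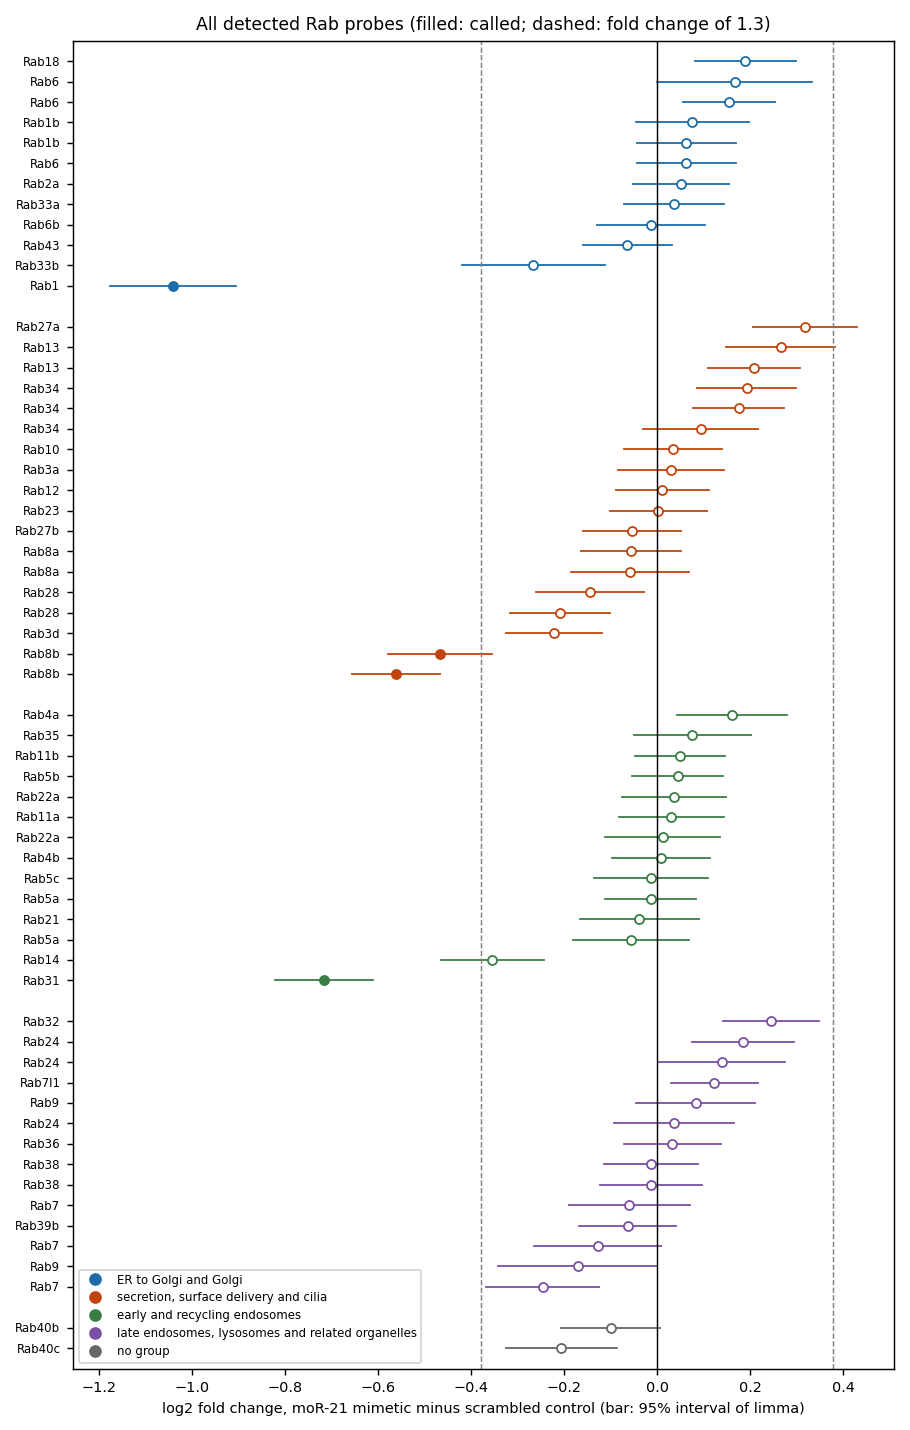
The log2 difference (moR-21 mimetic minus scrambled control) of each of the 60 detected probes of 43 Rab genes, grouped by role. Each is a point with its 95% confidence interval from limma, and dashed lines mark the fold cutoff of 1.3. The probes of Rab1, Rab31 and Rab8b lie left of the lower line, from -1.04 to -0.47, and no probe lies right of the upper line.

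Rab1 (now Rab1a; GRCm38.p6, chr11:20201412-20226856), the Rab that ER-derived vesicles need for tethering and fusion at the Golgi, had the largest difference of the family. Its probe read 9.56, 9.58 and 9.64 on the log2 scale in control samples 1 to 3, and 8.70, 8.41 and 8.54 in moR-21 samples 1 to 3. The groups lay far apart, with the 3 moR-21 samples spread more widely (SD 0.141, n = 3) than the controls (SD 0.0405, n = 3). The difference was -1.04 ± 0.0630 (SE), a signal 2.06-fold lower (limma, Benjamini-Hochberg adjusted p = 3.11e-08), which placed the probe at rank 37 from the lowest of 11651. The repeat arrays, 9.61 and 9.51 for control sample 1 and 8.51 and 8.58 for moR-21 sample 3, lay on the same sides.

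Rab1b, which shares the ER to Golgi step with Rab1 and is almost the same protein, did not show this difference. Its brighter probe averaged 9.07 ± 0.0666 in control and 9.13 ± 0.0440 in moR-21 samples (SD, n = 3 each), and the groups overlapped. The difference was 0.06 with a 95% interval of -0.04 to 0.17, and a dimmer probe of Rab1b gave 0.08.

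Rab31 (chr17:65651726-65772752), a relative of Rab5 and Rab22a that carries cargo such as the mannose 6-phosphate receptor between the Golgi and endosomes, was called next. Its probe read 10.06, 9.98 and 10.02 in control and 9.35, 9.23 and 9.33 in moR-21 samples, and the groups lay apart by far more than their spread. The difference was -0.72 ± 0.0490 (SE), 1.64-fold lower (limma, adjusted p = 1.01e-07). Rab22a, its closest relative, which acts on early endosomes, had overlapping groups and a difference of 0.01 (95% interval -0.11 to 0.14), with a dimmer probe at 0.04.

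Rab8b (chr9:66843609-66919705), one of a pair of Rab8 proteins that guide Golgi-derived carriers to the cell surface and take part in building cilia, was measured by 2 probes, and both were called. The brighter probe read 9.80, 9.77 and 9.77 in control and 9.19, 9.23 and 9.23 in moR-21 samples. Here the spread within each group was the smallest of the called probes (SD 0.0165 and 0.0192, n = 3 each). Its difference was -0.56 ± 0.0439 (SE), 1.48-fold lower (limma, adjusted p = 3.70e-07). The other probe read 9.37, 9.25 and 9.23 against 8.87, 8.77 and 8.80, again with no overlap, a difference of -0.47 ± 0.0519 (SE), 1.38-fold lower (limma, adjusted p = 1.08e-05). Both probes of Rab8a had overlapping groups, each with a difference of -0.06, and the 95% interval of the brighter was -0.16 to 0.05.

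**Figure D2:**
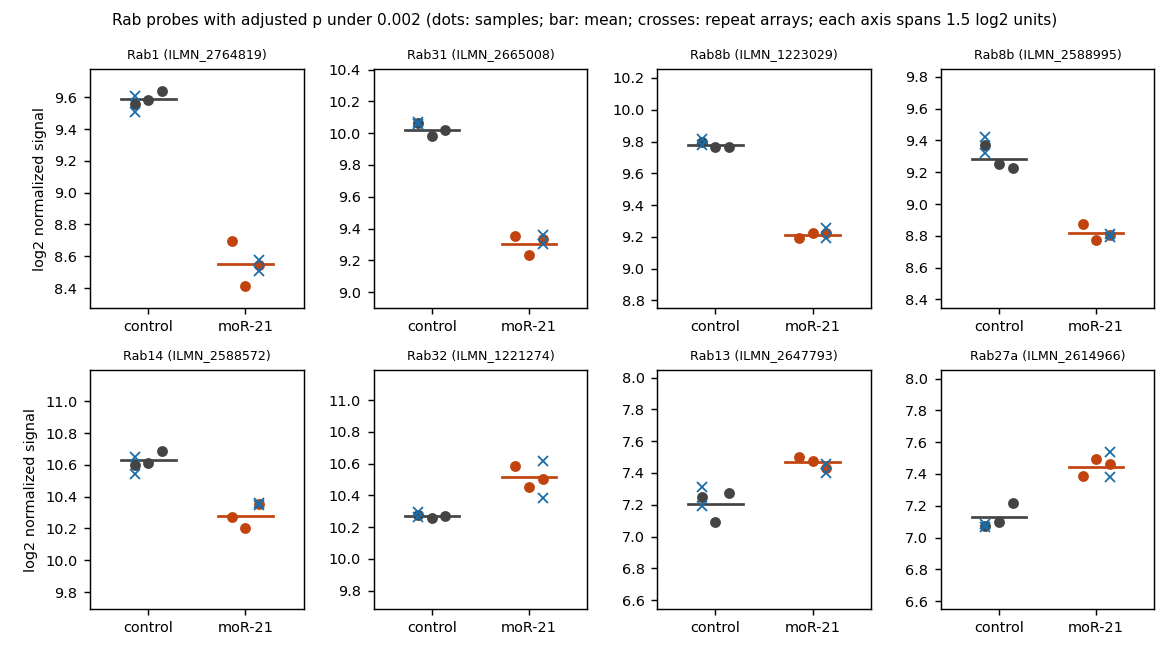
Quantile-normalized log2 signal in each of the 6 samples (3 scrambled control, 3 moR-21 mimetic) for the 8 Rab probes with an adjusted p under 0.002, each axis spanning 1.5 log2 units; each dot is a sample, each bar a group mean and each cross a repeat array. The groups do not overlap in any panel, with moR-21 samples lower for Rab1, Rab31, Rab8b and Rab14 and higher for Rab32, Rab13 and Rab27a.

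A further 4 Rab genes had an adjusted p under 0.002 with a fold change under the cutoff, and so were not called. Rab14, which acts between the Golgi and recycling endosomes, read 10.60, 10.61 and 10.69 in control and 10.27, 10.20 and 10.35 in moR-21 samples, a difference of -0.35 ± 0.0514 (SE), 1.28-fold (limma, adjusted p = 1.10e-04). Its groups did not overlap, and it lay just inside the cutoff: without moR-21 sample 3 it was called, at -0.39.

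The other 3 were higher in every moR-21 sample than in any control sample. Rab27a, known for moving melanosomes and for docking secretory lysosomes and exosome-bearing endosomes at the plasma membrane, read 7.08, 7.10 and 7.21 in control and 7.39, 7.49 and 7.46 in moR-21 samples, a difference of 0.32 ± 0.0519 (SE), 1.25-fold (limma, adjusted p = 2.94e-04). Rab13, which carries junction proteins to the surface of epithelial cells, read 7.25, 7.09 and 7.27 against 7.50, 7.48 and 7.43 at its brighter probe, a difference of 0.27 ± 0.0545 (SE, limma adjusted p = 0.00175). Its dimmer probe gave 0.21 (7.14, 7.09 and 7.09 against 7.33, 7.27 and 7.35 in the same order of groups, limma adjusted p = 0.00277). Rab32, found on mitochondria and on lysosome-related organelles, read 10.28, 10.26 and 10.27 in control and 10.59, 10.46 and 10.50 in moR-21 samples, a difference of 0.25 ± 0.0481 (SE, limma adjusted p = 0.00123). These p-values depended on the processing. Under median scaling the limma adjusted p was 0.0333 for Rab32, 0.0135 for the brighter Rab13 probe and 0.0017 for Rab27a. Under cyclic loess that of Rab32 was 0.00315.

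No background was subtracted in these values, which shortens the difference of a dim probe. With normexp background correction Rab27a had a difference of 0.68 and was called higher, the only Rab gene called higher under that correction. The probes of Rab13 had 0.55 and 0.47 under it, past the fold cutoff, and missed the call by their limma adjusted p of 0.00660 and 0.00217.

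Along the secretory route, 9 ER and Golgi Rabs were detected and Rab1 was the only call. Rab33b, a Golgi Rab that also takes part in autophagy, had a difference of -0.27 (limma, adjusted p = 0.0101), and its brain-enriched relative Rab33a one of 0.04. Rab18, found on the ER and on lipid droplets, had 0.19, and Rab6, which runs from the Golgi back to the ER, had 0.06 to 0.17 over its 3 probes. Rab2a, Rab6b and Rab43, which act at the Golgi, lay between -0.06 and 0.05.

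Of 12 Rabs of secretion, surface delivery and cilia, Rab8b was the only call. Rab3d, a Rab of secretory granules, had -0.22 (limma, adjusted p = 0.00250), while Rab3a, best known from synaptic vesicles, had 0.03. Rab28, which is needed in cilia of photoreceptors, had -0.21 at its brighter probe (limma, adjusted p = 0.00507) and -0.15 at the other. Rab34, which takes part in forming cilia, had 0.09 to 0.19 over 3 probes. Rab10, known for bringing glucose transporters to the surface, had 0.03, and Rab12, Rab23 and Rab27b had 0.01, 0.00 and -0.05.

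The 12 Rabs of early and recycling endosomes hold Rab31 and Rab14 and otherwise differed little. Rab5a, Rab5b and Rab5c, which define the early endosome and drive its fusion, had -0.06, 0.04 and -0.01. Rab4a, which returns receptors quickly to the surface, had 0.16 (limma, adjusted p = 0.0352) and Rab4b had 0.01. Rab11a and Rab11b, which mark the slower recycling endosome, had 0.03 and 0.05. Rab21, which carries integrins, had -0.04 and Rab35, which recycles receptors and takes part in cell division, had 0.08.

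No late endosome or lysosome Rab was called by limma among 8. Read at their brightest probes, 0 were lower and 3 were higher at an unadjusted p under 0.05 (all genes, 21.1% and 23.4%). These are too few genes to read a direction from. Rab32 was one of the 3. The others were Rab24, linked to autophagy, with 0.18 at its brightest probe and 0.04 to 0.18 over 3 probes, and Rab7l1 with 0.12 (limma, adjusted p = 0.0436). Rab7, the master Rab of late endosomes, had -0.06 at its brightest probe, and its 3 probes ran from -0.25 (limma, adjusted p = 0.00381) to -0.06. Rab9, which returns receptors from late endosomes to the Golgi, gave -0.17 at one probe (limma, unadjusted p = 0.0498) and 0.08 at its brighter one. Rab36, Rab38 and Rab39b had 0.03, -0.01 and -0.06. The remaining Rab40b and Rab40c, which are adaptors of ubiquitin ligases, had -0.10 and -0.21, the latter with a limma adjusted p of 0.0103.

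For 13 genes more than 1 probe was detected. Of these, 12 had the same sign at every detected probe, Rab9 had both signs, and 0 had probes that differed in their call. The other 30 genes, Rab1 and Rab31 among them, rest on 1 detected probe. Of the 56 probes that were not called, 52 had a 95% interval inside the fold cutoff on both sides. The intervals of the other 4, Rab14, Rab33b, Rab27a and the brighter Rab13 probe, reached past it. Thus for most Rab GTPases a change of 1.3-fold on this uncorrected scale lay outside the interval.

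A group of 12 genes had no detected probe: Rab15, Rab17, Rab19, Rab20, Rab25, Rab2b, Rab30, Rab37, Rab39, Rab3b, Rab3c and Rab9b. Several of them are known from epithelia (Rab17, Rab25) or from neurons and endocrine cells (Rab3b, Rab3c). Of the 24 undetected probes, 10 belonged to genes with another, detected probe. Of the 60 detected probes, 53 were detected on all 8 arrays. The other 7, one each of Rab40b, Rab39b, Rab27b, Rab38, Rab11a, Rab33a and Rab5b, were detected on some arrays only, so their signal was near background and their difference has little room to show. This limit can also reach dim probes detected on all 8 arrays, such as those of Rab10 and Rab23, with control means of 6.97 and 7.13.

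The called Rabs were then compared with their paralogues. Pairs were formed by name (the same number with another letter, and Rab22a with Rab31), after the values had been seen, and the difference between paralogues was taken in each sample. In 6 of 13 pairs this difference separated the 3 moR-21 from the 3 control samples, and in 7 it overlapped. No such share was computed for pairs of other genes. Among single probes, moR-21 samples lay all below control in 21.2% and all above in 23.7% of all probes. The count of separated pairs is therefore not read as a trait of Rab paralogues. The pairs of Rab1, Rab31 and Rab8b each hold a called gene, so their separation was close to given. The log2 differences of the 2 paralogues were apart by 1.10 for Rab1 and Rab1b, by 0.73 for Rab31 and Rab22a and by 0.50 for Rab8b and Rab8a. Those of Rab27a and Rab27b were apart by 0.37, of Rab33b and Rab33a by 0.30 and of Rab3d and Rab3a by 0.25. The partners Rab27b and Rab33a were detected on 6 and on 1 of the 8 arrays, so near background that their own difference could hardly show, and the separation of these pairs says little about the partner. With 3 samples against 3, the two-sided exact permutation test cannot go below p = 0.1, which each of the 6 pairs reached (adjusted p = 0.217 over 13 pairs).

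**Figure D3:**
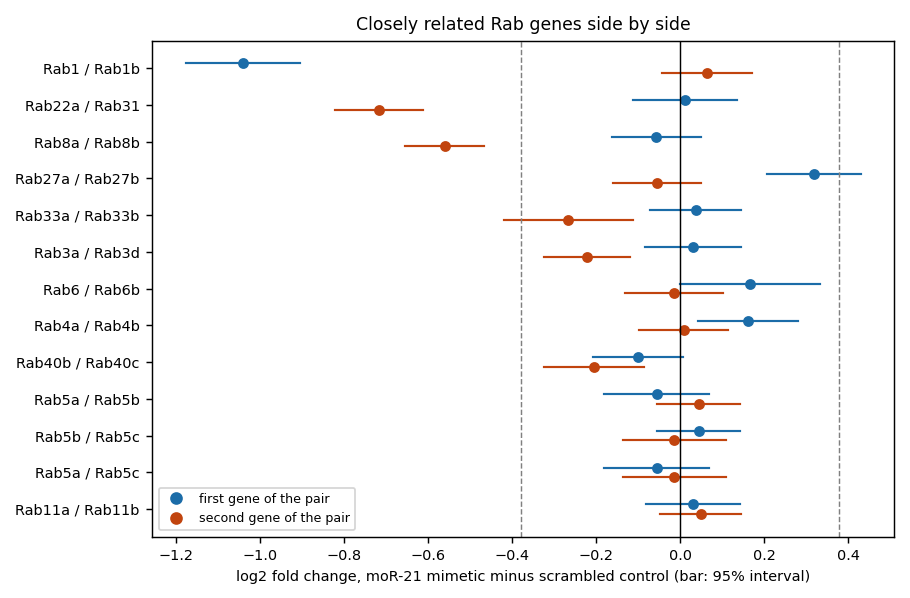
The log2 differences (moR-21 mimetic minus scrambled control) of Rab paralogues, each gene at its brightest probe with its 95% confidence interval from limma (blue for the first and red for the second gene of a pair; dashed lines, the fold cutoff of 1.3). Rab1, Rab31 and Rab8b lie at -1.04, -0.72 and -0.56, and the intervals of Rab1b, Rab22a and Rab8a include 0.

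Genes that load, switch and read Rab proteins were read from lists in the same fit, each gene at its brightest probe, beside 7.79% of all genes called in either direction. The counts at an unadjusted p under 0.05 given for these lists stand beside 21.1% of all genes lower and 23.4% higher. The lists were chosen with earlier results of these data known, which limits what their shares can show. Of 6 detected genes for prenylation and recycling, which attach the lipid tail or extract Rabs from membranes, limma called 0, with 2 lower and 1 higher at an unadjusted p under 0.05. The largest difference there was that of Rabggtb, a subunit of the enzyme that attaches the tail, at 0.34 (limma, adjusted p = 1.06e-04), under the fold cutoff. Chm, the escort protein that presents Rabs to this enzyme, was not detected.

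Of 33 exchange factors 3 were called lower (9.09%) and 0 higher, with 7 lower and 8 higher at an unadjusted p under 0.05. Sbf1, a DENN domain protein, had -0.49 (limma, adjusted p = 2.25e-06), Rin2, an exchange factor of Rab5, -0.45 (adjusted p = 5.55e-06) and Rabgef1 (Rabex-5), also of Rab5, -0.43 (adjusted p = 5.01e-05). A dimmer probe of Rin2 gave -0.01 and was not called. Of 11 detected subunits of TRAPP, the complex that turns on Rab1, 5 had a difference above 0 and 6 below, and none was called. Their differences were highest for Trappc6a (0.36), Trappc4 (0.31), Trappc1 (0.26) and Trappc3 (0.21), and lowest for Trappc9 (-0.11).

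Of 28 GAPs 1 was called lower and 1 higher (7.14%). Tbc1d5, a GAP of Rab7, had -0.43 (limma, adjusted p = 2.86e-05). Tbc1d7, which is also a part of the TSC complex that restrains mTORC1, had 0.55 (limma, adjusted p = 3.23e-06), and its other probe gave 0.62.

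Of 31 effectors 2 were called lower (6.45%) and 0 higher, with 11 lower and 9 higher at an unadjusted p under 0.05. Gorasp1 (GRASP65), which tethers Golgi membranes, had -0.54 (limma, adjusted p = 1.13e-06). Its partner Golga2 (GM130), a Golgi tether that binds Rab1, had -0.29 at its brightest probe and was not called. The other detected probes of Golga2 gave -0.14, -0.11, -0.34 and -0.04. Fyco1, which links late endosomes carrying Rab7 to kinesin, had -0.49 (limma, adjusted p = 1.94e-05). Golga5, a golgin that also binds Rab1, and Appl1, an effector of Rab5, had 0.36 and 0.33 without a call.

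Outside the Rab name, Arl8a, which moves lysosomes along microtubules, was the call among 16 Arf and Sar GTPases (6.25%), at -0.38 (limma, adjusted p = 3.92e-04). It lay at the fold cutoff. At an unadjusted p under 0.05, 7 of the 16 were lower and 2 higher, beside 21.1% and 23.4% of all genes. Arl8b had -0.26 without a call. Of 4 detected Rab-like genes, Rabl2a had -0.48 (limma, adjusted p = 5.79e-06) and Rabl4, now Ift27, a GTPase of the train that carries cargo in cilia, had 0.39 (adjusted p = 5.16e-05) with another probe at 0.42.

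**Figure D4:**
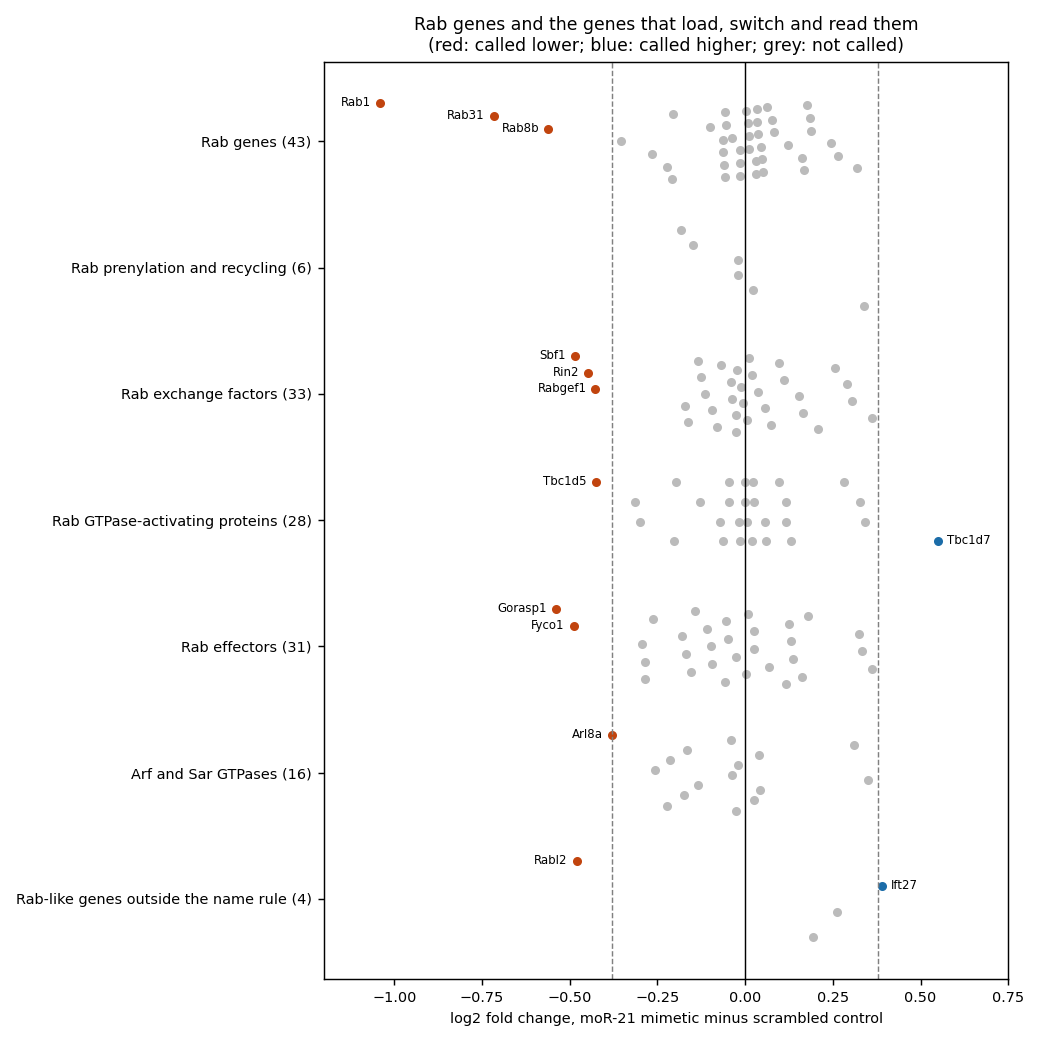
The log2 difference (moR-21 mimetic minus scrambled control) of each detected gene at its brightest probe, for Rab genes and for the lists of genes around them (number of detected genes in brackets); dashed lines mark the fold cutoff of 1.3 and called genes are named (Rabl2 and Ift27 are current symbols of Rabl2a and Rabl4). Rab1, at -1.04, lies farthest from 0 of all genes shown, and Tbc1d7, at 0.55, is the highest.

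Rab1 and Rab31 were called under each of 19 other ways of normalizing, filtering and testing the arrays, with differences between -1.24 and -0.97 for Rab1 and between -0.80 and -0.68 for Rab31. Both probes of Rab8b were called under 18 of the 19, and missed the fold cutoff when it was raised to 1.5. Those of the 19 that only loosened the cutoffs of the reported fit could not remove a call. Rab14, whose difference lay close to the fold cutoff, was called under median scaling and cyclic loess too, at -0.38 in each. With normexp background correction Rab14 had -0.377 and a limma adjusted p of 0.00576, and was not called. Without moR-21 replicate 2 it had -0.32, also without a call.

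**Figure D5:**
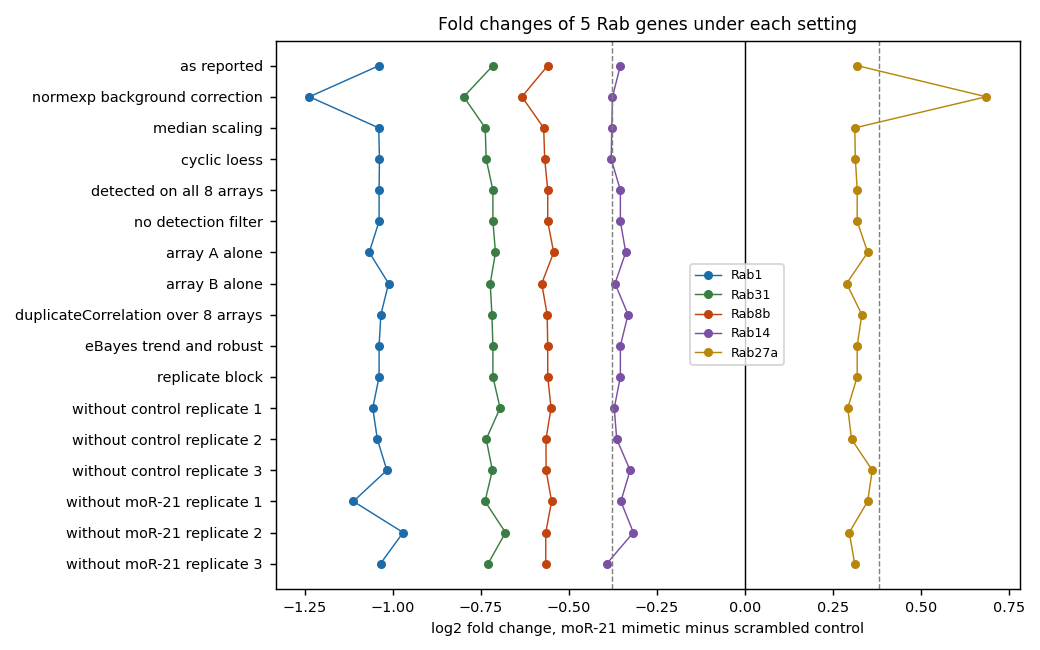
The log2 difference (moR-21 mimetic minus scrambled control) of 5 Rab genes (horizontal axis) under each way of normalizing, filtering or leaving out arrays (rows), 1 point and line colour per gene at its brightest probe; dashed lines mark the fold cutoff of 1.3. Rab1 stays between -1.24 and -0.97 and Rab31 between -0.80 and -0.68, whereas Rab27a moves from 0.32 to 0.68 with normexp background correction.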

How the data were processed

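The deposited table held non-normalized probe intensities of 8 Illumina mouse BeadChip arrays, as the authors exported them, and a detection p-value per probe and array, also deposited. The labels and methods name limma and quantile normalization; slide and scan date were not given in the sources used here. From these values, intensities of all 8 arrays were quantile normalized without background subtraction, put on the log2 scale, and the repeat arrays of control sample 1 and moR-21 sample 3 averaged, leaving 3 against 3 samples. The number of arrays limits the precision. limma 3.58.1 (R 4.3.3; lmFit, eBayes, no covariate) was fitted to the 11651 probes that at least 1 array detected (p under 0.01), with Benjamini-Hochberg adjustment over all of them. Calls needed a fold over 1.3 and an adjusted p under 0.002. A gene was read at its detected probe with the highest mean signal.

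Every Rab gene was named. Sample values were given for probes called or with an adjusted p under 0.002 and for other probes of those genes. Of the regulator lists the called genes were named, with some others that were not picked by size alone. Roles and positions came from general knowledge and RefSeq (GRCm38.p6). The members and lists were chosen with earlier results of these data known. Same-numbered samples did not deviate together in every pair (correlations of 0.19, 0.04 and 0.06), so numbers were not used to pair samples. The fit was tested on simulated data. Alternatives were normexp correction, median scaling, cyclic loess, other detection filters, single arrays of the repeated samples, a block for repeat arrays, trended and robust eBayes, a replicate block, leaving out each sample, other cutoffs, and the dimmest probe of a gene.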

Additional observations from a re-analysis of the deposited data

How the results depend on the processing

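The count of Rab probes called lower (4) became 2 with a fold over 1.5 and 10 with an adjusted p under 0.05 and no fold cutoff, and that of genes called lower (3) became 2, without Rab8b, and 8. The counts called higher (0) became 1 probe and 1 gene with normexp correction, Rab27a, and 11 probes and 8 genes with an adjusted p under 0.05 and no fold cutoff. Leaving out 1 sample at a time gave 4 to 5 probes and 3 to 4 genes lower and 0 higher, the fifth probe being that of Rab14 without moR-21 replicate 3. The replicate block gave 4 probes and 3 genes lower and 0 higher, and changed no Rab call. With the remaining settings the counts lower were 4 or 5 probes and 3 or 4 genes. Of the 60 probes 19 changed sign under some alternative, each with a difference under 0.1 in size as reported (largest 0.0931). Dim probes limit what can be seen: their differences are shortened by background left in the signal, and the cause of the shift of Rab27a was not tested.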
